A study of Mus musculus with 4 samples.

Results

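The G2 and mitosis genes are 53 genes whose products carry a cell from the end of DNA replication through chromosome segregation and division. They were chosen by name: every spot of the deposited value table annotated with 1 of the 53 symbols and holding a value on all 4 arrays was used, and spots of a gene were averaged. This gave 47 measured members, among 8676 genes measured the same way. Of the other 6, Ccnb1, Mki67, Espl1, Cenpf and Ncapg had no spot under their symbol, and the single Kif20a spot held values on only 2 arrays.

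The cells were RIF-1, a mouse line grown from a radiation-induced fibrosarcoma. RNA interference was aimed at Bre1a (gene Rnf20) or at Bre1b (gene Rnf40), and each knockdown was compared with a mock knockdown aimed at GFP and with cells that had no knockdown. Each of the 4 two-colour arrays compared 1 knockdown RNA, in Cy5, with 1 control RNA, in Cy3, so the 4 arrays are Bre1a against mock, Bre1a against no knockdown, Bre1b against mock and Bre1b against no knockdown. No agent or time point was given in the labels, nor the reagent or efficiency of the knockdown.

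Bre1a and Bre1b proteins form a dimer that is the E3 ligase for ubiquitin on histone H2B, a mark laid down along transcribed genes. The mitotic programme is switched on late in the cell cycle: cyclin B with Cdk1 drives entry into mitosis, polo-like and Aurora kinases build the spindle, the kinetochore ties chromosomes to microtubules, and the anaphase-promoting complex ends mitosis by destroying cyclins and securin. Transcription of these genes peaks together in G2 under FoxM1 and B-Myb with the MuvB core, and in quiescent cells the DREAM complex represses them. In a cell population, a lower ratio for such genes can come from fewer cells in G2 and mitosis or from less RNA per cell, and bulk arrays cannot tell these apart.

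All values below are log2 ratios of Cy5 over Cy3, knockdown over control, unless a difference between arrays is named. A gene was called where limma's moderated test, fitted to all 8676 genes with each knockdown and the kind of control as terms, gave a Benjamini-Hochberg adjusted p below 0.05. The fit has 1 residual degree of freedom, and many adjusted p-values sit just under the threshold, so the array values are given first. The labels do not describe separate cultures, so the p-values reflect variation among these 4 arrays only, possibly technical in part or whole. The control term takes out the gap between a knockdown's 2 arrays as far as both knockdowns share it. That gap is therefore not in the SE or the p-value, and a called gene can have its 2 arrays on opposite sides of 0. Dyes were never swapped, so a gene's dye bias cannot be told apart from its response against a control. It drops out of a difference between arrays where it is equal on them. The labels' image links file the 2 Bre1a arrays in one folder and the 2 Bre1b arrays in another, so that grouping and the knockdown cannot be told apart.

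Rnf20 stood at -1.35 against mock and -1.60 against no knockdown after Bre1a knockdown, and 0.51 and 0.42 against the same controls after Bre1b knockdown. It was low on both Bre1a arrays and above 0 on both Bre1b arrays, and after Bre1a knockdown it was left at 35.9% of the controls (limma adjusted p = 0.0212). Rnf40 stood at 0.65 and 0.17 on the Bre1a arrays against mock and no knockdown, and -1.23 and -1.49 on the matching Bre1b arrays. It was low on both Bre1b arrays and above 0 on both Bre1a arrays, and after Bre1b knockdown it stood at 38.9% of the controls (limma adjusted p = 0.00944). The arrays held 19874 to 22255 spot values each, with medians between -0.03 and 0.01 and SDs between 0.98 and 1.14. Of the fibroblast markers 9 were measured. After Bre1a knockdown 1 was called higher and 3 lower (median 0.06), where 21.1% and 19.9% of all genes were. The higher one was Col1a1 (0.48), and the lower ones were Col3a1 (-0.93), Pdgfrb (-0.86) and Fn1 (-0.60). After Bre1b knockdown 1 was called higher and 1 lower (median 0.02), where 32.3% and 28.2% of all genes were. S100a4 stood at the most frequent value of each of the 4 arrays. Of 4 measured epithelial markers, 2 were called lower and 0 higher by limma after Bre1a knockdown (Krt8 at -1.25 and Krt18 at -1.21, with 1 higher at an unadjusted p below 0.05). After Bre1b knockdown 2 were called lower (Krt8 at -0.71 and Epcam at -0.39) and 0 higher by limma, also at an unadjusted p below 0.05. Krt8 stood there at -1.62 against mock and 0.20 against no knockdown. Between the knockdowns 1 of the 4 was called higher and 1 lower, where 11.7% of all genes were called higher and 13.2% lower. The 1 measured leukocyte marker, Coro1a, was lower after Bre1a (-0.72) and after Bre1b knockdown (-0.69). The 1 measured endothelial marker, Eng, was lower after Bre1b knockdown (-1.14) and was not called after Bre1a knockdown (-0.41). The part of these markers in the results was not tested. Ratios hold no expression level, so the cell identity itself was not checked.

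The mitotic genes sat at different places on the 4 arrays. Against mock, 46 of the 47 members were above 0 after Bre1a knockdown, with a median of 0.31, and 16 were above 0 after Bre1b knockdown, with a median of -0.05. Against cells without knockdown, 28 were above 0 after Bre1a knockdown, with a median of 0.06, and 2 were above 0 after Bre1b knockdown, with a median of -0.34. These 2, Cdk1 and Cenpa, lay within 0.002 of that array's most frequent value, shared by 803 spots, which may hold no measured difference. Over all 8676 genes the same 4 medians were 0.04, 0.00, 0.02 and 0.05, and the share above 0 was between 49.8% and 54.7%. The members' median was lower after Bre1b than after Bre1a knockdown whichever control was used, and lower against no knockdown than against mock whichever gene was targeted.

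**Figure D1:**
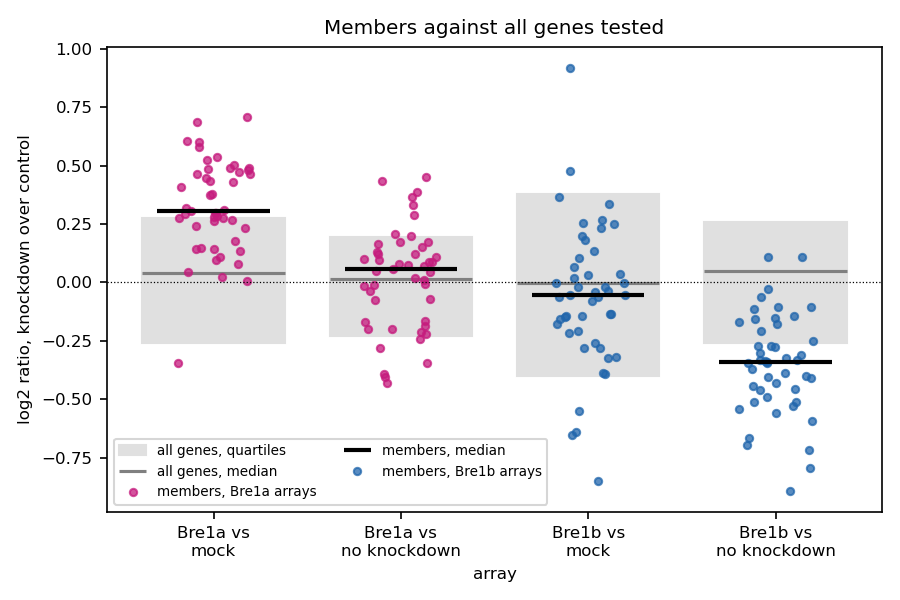
Log2 ratio (knockdown over control, vertical axis) of each of the 47 measured G2 and mitosis genes on each of the 4 arrays (horizontal axis), 1 point per gene; black lines are the members' medians, and grey lines and bands the medians and quartiles of all 8676 genes. The members' medians are 0.31 and 0.06 on the Bre1a arrays against mock and no knockdown, and -0.05 and -0.34 on the matching Bre1b arrays.

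The largest median of the 4 comparisons was between the 2 knockdowns, where the control drops out if its RNA was the same on both arrays. In Bre1a minus Bre1b, 44 of the 47 members were above 0, and the median difference was 0.38, against 0.00 over all genes. Members read against mock gave a median difference of 0.37 and members read against no knockdown gave 0.37. A total of 40 members (85.1%) were higher after Bre1a knockdown against both controls, where 39.3% of all genes were. Another 3 members, Aurka, Cdc20 and Prc1, were lower against both, where 42.3% of all genes were. Both Bre1a arrays lay above both Bre1b arrays for 28 members (59.6%), where 23.3% of all genes did so, and the opposite order was found for 0 members, where 26% of all genes had it. For 18 members (38.3%) both Bre1a arrays were above 0 and both Bre1b arrays below 0, where 5.29% of all genes had that pattern.

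By the test, 20 of the 47 members were called higher after Bre1a than after Bre1b knockdown, where 11.7% of all genes were, with limma adjusted p between 0.0372 and 0.0451. None was called lower (0 of 47, and 0 also at an unadjusted limma p below 0.05), where 13.2% of all genes were. At an unadjusted p below 0.05, 38 members were higher. Without the term for the control, limma called 0 members, and 15 were higher at an unadjusted p below 0.05. In size, 9 members (19.1%) were at least 1.5-fold higher against both controls, where 6.1% of all genes were, and 0 were at least 1.5-fold lower, where 5.36% of all genes were. These 9 were Birc5, Cdc25c, Cdca3, Cenpe, Foxm1, Kif11, Kif15, Melk and Spc24.

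**Figure D2:**
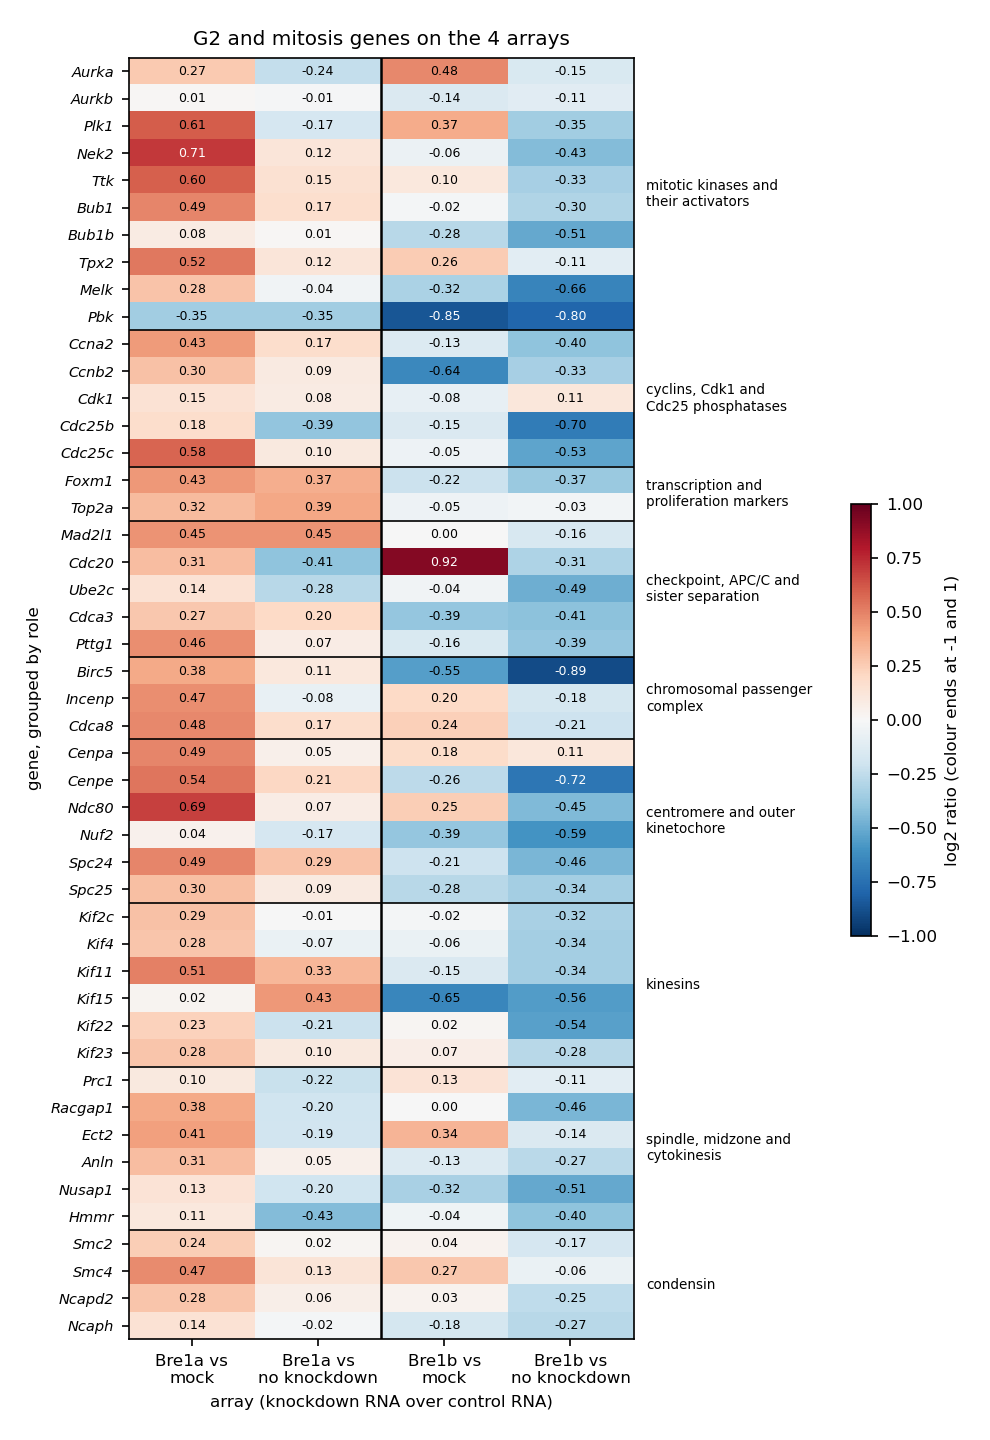
Log2 ratio (knockdown over control, colour and printed value) of every measured G2 and mitosis gene (rows, grouped by role) on the 4 arrays (columns). Most rows are above 0 on the Bre1a array against mock and below 0 on the Bre1b array against no knockdown, where 46 of 47 members are above 0 and 45 of 47 below 0.

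The chromosomal passenger complex holds Aurora B at the centromere and later at the spindle midzone. Birc5 (survivin), its small subunit that binds the histone H3 tail, gave the largest difference of all members, with log2 ratios of 0.38 against mock and 0.11 against no knockdown after Bre1a knockdown, and -0.55 and -0.89 against the same controls after Bre1b knockdown. Both Bre1a arrays were above 0 and both Bre1b arrays below 0, the difference was 0.96 ± 0.05 (SE; adjusted p = 0.0372), which is 1.95-fold, and the 3 Birc5 probes ran from 0.872 to 1.07. Birc5 rose after Bre1a knockdown (limma adjusted p = 0.0379) and fell after Bre1b knockdown (limma adjusted p = 0.00944). Cdca8 (borealin), which targets the complex to the centromere, had 0.48 and 0.17 on the Bre1a arrays against mock and no knockdown, and 0.24 and -0.21 on the matching Bre1b arrays. It rose after Bre1a knockdown (0.33 ± 0.05, SE; adjusted p = 0.0331), its Bre1a and Bre1b arrays overlapped, and the difference of 0.31 ± 0.07 (SE; adjusted p = 0.0668) was not called. Incenp, the scaffold of the complex, differed by 0.18 ± 0.07 (SE; adjusted p = 0.166). Aurkb itself (Aurora B) was near 0 throughout, at 0.01 and -0.01 on the Bre1a arrays against mock and no knockdown, and -0.14 and -0.11 on the matching Bre1b arrays. Its difference of 0.13 ± 0.05 (SE; adjusted p = 0.183) was not called.

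Kinetochore genes had the highest share of called members among the roles with at least 5 measured genes. Of 6, 5 were called higher after Bre1a than after Bre1b knockdown, where 11.7% of all genes were, with a median difference of 0.49. This order of roles holds for the main fit only, since limma called 0 members with arrays scaled or with missing values kept. Cenpe, a kinesin that carries chromosomes to the metaphase plate, had 0.54 against mock and 0.21 against no knockdown after Bre1a knockdown, and -0.26 and -0.72 against the same controls after Bre1b knockdown. Both Bre1a arrays were above 0 and both Bre1b arrays below it. The difference was 0.86 ± 0.06 (SE; adjusted p = 0.0372), although the 3 Cenpe probes ran from 0.505 to 1.57. On the Bre1b array against mock these probes stood at 0.038, 0.114 and -0.935, so only the last was below 0 there. Spc24, which with Spc25 anchors the microtubule-binding Ndc80 complex to the inner kinetochore, had 0.49 and 0.29 on the Bre1a arrays against mock and no knockdown, and -0.21 and -0.46 on the matching Bre1b arrays. Again the arrays of the 2 knockdowns lay on opposite sides of 0, with a difference of 0.72 ± 0.05 (SE; adjusted p = 0.0372). Its partner Spc25 differed by 0.50 ± 0.07 (SE; adjusted p = 0.0451). Nuf2, a coiled-coil subunit of the same complex, was at 0.04 (mock) and -0.17 (no knockdown) on the Bre1a arrays, and -0.39 (mock) and -0.59 (no knockdown) on the Bre1b arrays. It fell after Bre1b knockdown (-0.49 ± 0.04, SE; adjusted p = 0.0105), and it was not called after Bre1a knockdown (-0.06 ± 0.04, SE; adjusted p = 0.252).

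Ndc80 (Hec1), the subunit that touches the microtubule, had 0.69 against mock and 0.07 against no knockdown after Bre1a knockdown, and 0.25 and -0.45 against the same controls after Bre1b knockdown. Its arrays of the 2 knockdowns overlapped, and after either knockdown the value was lower against no knockdown than against mock. Within each control Bre1a stood higher, and the difference was 0.48 ± 0.06 (SE; adjusted p = 0.041). Cenpa, the histone H3 variant that marks centromeres, differed least in this group, by 0.12 ± 0.13 (SE; adjusted p = 0.495). Its array values were 0.49 and 0.05 on the Bre1a arrays against mock and no knockdown, and 0.18 and 0.11 on the matching Bre1b arrays. All 4 were above 0, and 1 of them lay within 0.002 of its array's most frequent value, shared by 683 to 803 spots per array, which may hold no measured difference.

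Among the motor proteins, 6 of 6 measured kinesins had a positive difference, and 2 were called, where 11.7% of all genes were called higher. Kif15, a plus-end motor that helps hold the bipolar spindle, had 0.02 against mock and 0.43 against no knockdown after Bre1a knockdown, and -0.65 and -0.56 against the same controls after Bre1b knockdown. Its Bre1a arrays were above 0 and its Bre1b arrays well below it, and the difference was 0.83 ± 0.11 (SE; adjusted p = 0.0443). On the Bre1a array against mock the Kif15 probes stood at 0.199, 0.172 and -0.299, so the last was below 0 there. Kif11 (Eg5), which pushes the spindle poles apart, had 0.51 and 0.33 on the Bre1a arrays against mock and no knockdown, and -0.15 and -0.34 on the matching Bre1b arrays. Here too the arrays of the 2 knockdowns fell on opposite sides of 0, with a difference of 0.66 ± 0.05 (SE; adjusted p = 0.0372). Kif22 (Kid), a chromosome-arm motor, differed least, at 0.27 ± 0.06 (SE; adjusted p = 0.0752). Its values were 0.23 (mock) and -0.21 (no knockdown) on the Bre1a arrays, and 0.02 (mock) and -0.54 (no knockdown) on the Bre1b arrays, higher against mock than against no knockdown after either knockdown. Kif2c, Kif4 and Kif23 differed by 0.29 to 0.32 and were not called.

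The transcription factor Foxm1, which activates many of the other members, was at 0.43 against mock and 0.37 against no knockdown after Bre1a knockdown, and -0.22 and -0.37 against the same controls after Bre1b knockdown. Both Bre1a arrays were above 0 and both Bre1b arrays below it, and the difference was 0.69 ± 0.06 (SE; adjusted p = 0.0373). Foxm1 rose after Bre1a knockdown (0.40 ± 0.04, SE; adjusted p = 0.0252) and fell after Bre1b knockdown (-0.29 ± 0.04, SE; adjusted p = 0.0203). Top2a, the topoisomerase that untangles sister chromatids, had 0.32 and 0.39 on the Bre1a arrays against mock and no knockdown, and -0.05 and -0.03 on the matching Bre1b arrays. It rose after Bre1a knockdown (0.35 ± 0.04, SE; adjusted p = 0.0258), lay just below 0 on both Bre1b arrays, and differed by 0.39 ± 0.05 (SE; adjusted p = 0.0443).

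In the cyclin and Cdk1 group, 2 of 5 measured members were called higher after Bre1a than after Bre1b knockdown, where 11.7% of all genes were. Cdc25c, a phosphatase that activates Cdk1 at mitotic entry, had 0.58 against mock and 0.10 against no knockdown after Bre1a knockdown, and -0.05 and -0.53 against the same controls after Bre1b knockdown. The 2 knockdowns lay on opposite sides of 0, and the difference was 0.63 ± 0.05 (SE; adjusted p = 0.0373). Ccna2 (cyclin A2), needed in S phase and at mitotic entry, differed by 0.57 ± 0.05 (SE; adjusted p = 0.0378). Ccnb2, a B-type cyclin, had 0.30 and 0.09 on the Bre1a arrays against mock and no knockdown, and -0.64 and -0.33 on the matching Bre1b arrays. Its arrays lay on opposite sides of 0 as well, yet the difference of 0.68 ± 0.17 (SE; adjusted p = 0.0855) was not called, and it was 0.94 against mock and 0.42 against no knockdown. Cdc25b, the phosphatase that starts Cdk1 activation at the centrosome, had 0.18 (mock) and -0.39 (no knockdown) on the Bre1a arrays, and -0.15 (mock) and -0.70 (no knockdown) on the Bre1b arrays. It fell after Bre1b knockdown (-0.42 ± 0.04, SE; adjusted p = 0.0115) and missed the threshold between the knockdowns (0.32 ± 0.05, SE; adjusted p = 0.0502).

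Cdk1, the kinase at the centre of mitotic entry, cannot be judged here, though it stays in the counts over the 47 members. Its complete spot stood at 0.15 against mock and 0.08 against no knockdown after Bre1a knockdown, and -0.08 and 0.11 against the same controls after Bre1b knockdown, and each of these lay within 0.002 of the most frequent value of its array. The other Cdk1 spot held values on the 2 Bre1a arrays alone, at -2.38 against mock and -0.85 against no knockdown. The 2 spots thus gave different pictures of Bre1a knockdown, and no difference between the knockdowns could be taken from the other one.

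Of the mitotic kinases and their activators, 5 of 10 were called higher after Bre1a than after Bre1b knockdown, where 11.7% of all genes were. Nek2, a centrosome-separating kinase, had 0.71 against mock and 0.12 against no knockdown after Bre1a knockdown, and -0.06 and -0.43 against the same controls after Bre1b knockdown. Both Bre1a arrays were above 0 and both Bre1b arrays below it, and the difference was 0.66 ± 0.08 (SE; adjusted p = 0.0438). Melk, a kinase of the AMPK family that is high in dividing cells, had 0.28 and -0.04 on the Bre1a arrays against mock and no knockdown, and -0.32 and -0.66 on the matching Bre1b arrays. Its Bre1a arrays straddled 0 while both Bre1b arrays were low, with a difference of 0.61 ± 0.05 (SE; adjusted p = 0.0373), and its 2 probes gave 0.446 and 0.784. The checkpoint kinases Ttk and Bub1 differed by 0.49 ± 0.05 (SE; adjusted p = 0.0389) and 0.49 ± 0.05 (SE; adjusted p = 0.0391), and the related Bub1b (BubR1) missed the threshold at 0.44 ± 0.07 (SE; adjusted p = 0.0502).

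Pbk, a mitotic kinase of the MAP kinase kinase family, was the only member called lower after Bre1a knockdown. It had -0.35 (mock) and -0.35 (no knockdown) on the Bre1a arrays, and -0.85 (mock) and -0.80 (no knockdown) on the Bre1b arrays. All 4 arrays were below 0, the Bre1b arrays by more, and the values hardly differed between the controls. Pbk fell after Bre1a knockdown (-0.35 ± 0.04, SE; adjusted p = 0.0265) and after Bre1b knockdown (-0.82 ± 0.04, SE; adjusted p = 0.00944), which is 1.27-fold and 1.77-fold lower, and the knockdowns differed by 0.48 ± 0.05 (SE; adjusted p = 0.04). Plk1, the polo-like kinase, had 0.61 and -0.17 on the Bre1a arrays against mock and no knockdown, and 0.37 and -0.35 on the matching Bre1b arrays. Its values split by control, 0.37 or more against mock and below 0 against no knockdown, and the difference between knockdowns was 0.21 ± 0.05 (SE; adjusted p = 0.0885). Aurka (Aurora A), which builds the spindle poles, showed the same split, at 0.27 (mock) and -0.24 (no knockdown) on the Bre1a arrays, and 0.48 (mock) and -0.15 (no knockdown) on the Bre1b arrays. Its Bre1a minus Bre1b value was -0.15 ± 0.06 (SE; adjusted p = 0.183). Tpx2, the activator of Aurora A, differed by 0.25 ± 0.05 (SE; adjusted p = 0.0668).

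**Figure D3:**
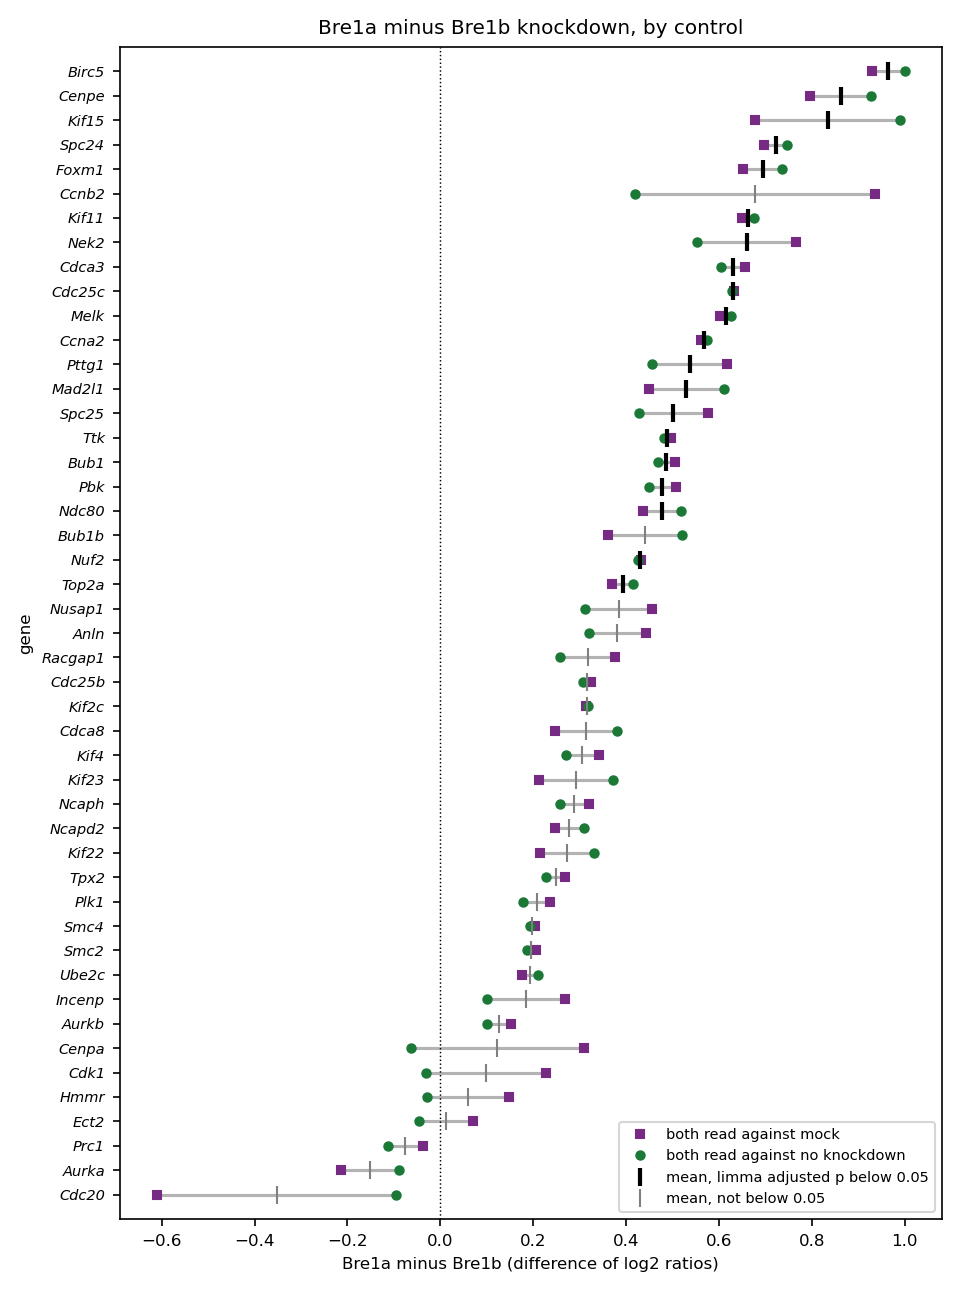
Bre1a minus Bre1b difference in log2 ratio (horizontal axis) for each measured G2 and mitosis gene (rows), with the arrays read against mock (squares) and against no knockdown (circles) shown separately and their mean as a tick, black where limma called it. In 40 members both points lie right of 0, and Birc5, Cenpe and Kif15 have the largest means, at 0.96, 0.86 and 0.83.

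Of the genes that restrain or trigger anaphase, 3 of 5 were called higher after Bre1a than after Bre1b knockdown, where 11.7% of all genes were. Cdca3 (Tome-1), a substrate adaptor that promotes the breakdown of Wee1, had 0.27 against mock and 0.20 against no knockdown after Bre1a knockdown, and -0.39 and -0.41 against the same controls after Bre1b knockdown. The 2 controls gave nearly the same values, the knockdowns lay on opposite sides of 0, and the difference was 0.63 ± 0.05 (SE; adjusted p = 0.0373). Pttg1 (securin), the inhibitor of separase, had 0.46 and 0.07 on the Bre1a arrays against mock and no knockdown, and -0.16 and -0.39 on the matching Bre1b arrays. Its difference was 0.54 ± 0.07 (SE; adjusted p = 0.0443). Mad2l1 (Mad2), which blocks Cdc20 until chromosomes are attached, had 0.45 (mock) and 0.45 (no knockdown) on the Bre1a arrays, and -0.002 (mock) and -0.16 (no knockdown) on the Bre1b arrays. It rose after Bre1a knockdown (0.45 ± 0.05, SE; adjusted p = 0.0271), was below 0 on both Bre1b arrays, and differed by 0.53 ± 0.07 (SE; adjusted p = 0.0448).

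Cdc20, the activator of the anaphase-promoting complex, went the other way, but on 1 of its 3 probes. The average had 0.31 against mock and -0.41 against no knockdown after Bre1a knockdown, and 0.92 and -0.31 against the same controls after Bre1b knockdown, and the Bre1a minus Bre1b value was -0.35 ± 0.17 (SE; adjusted p = 0.221). A single probe gave 0.10 and -1.11 on the Bre1a arrays and 2.09 and -0.57 on the Bre1b arrays, against mock and no knockdown, and differed by -1.27, while the highest of the 3 probes differed by 0.117. Ube2c (UbcH10), the ubiquitin-conjugating enzyme of that complex, had 0.14 and -0.28 on the Bre1a arrays against mock and no knockdown, and -0.04 and -0.49 on the matching Bre1b arrays. It fell after Bre1b knockdown (-0.26 ± 0.04, SE; adjusted p = 0.0206) and was not called between the knockdowns (0.19 ± 0.05, SE; adjusted p = 0.0929).

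Genes of the spindle midzone and cytokinesis and of condensin had median differences of 0.19 and 0.24. Limma called 0 of 6 and 0 of 4 between the knockdowns, with 3 and 4 higher at an unadjusted p below 0.05. Anln (anillin), a scaffold of the contractile ring, had 0.31 against mock and 0.05 against no knockdown after Bre1a knockdown, and -0.13 and -0.27 against the same controls after Bre1b knockdown. The knockdowns lay on opposite sides of 0, and the difference of 0.38 ± 0.06 (SE; adjusted p = 0.0515) just missed the threshold. On the Bre1b array against mock the Anln probes stood at 0.026, -0.003 and -0.421. Nusap1, a microtubule-bundling protein, had 0.13 and -0.20 on the Bre1a arrays against mock and no knockdown, and -0.32 and -0.51 on the matching Bre1b arrays. It fell after Bre1b knockdown (-0.42 ± 0.05, SE; adjusted p = 0.0159) and differed by 0.38 ± 0.07 (SE; adjusted p = 0.055). Ect2, the exchange factor that activates RhoA for the cleavage furrow, differed least of all members, by 0.01 ± 0.06 (SE; adjusted p = 0.885), with values of 0.41 (mock) and -0.19 (no knockdown) on the Bre1a arrays, and 0.34 (mock) and -0.14 (no knockdown) on the Bre1b arrays. Racgap1, the partner of Ect2 at the midzone, differed by 0.32 ± 0.06 (SE; adjusted p = 0.0619), and its 2 probes gave 0.075 and 0.56. On the Bre1b arrays against mock and no knockdown these probes were at 0.417 and 0.088, and at -0.419 and -1.006. Hmmr differed by 0.06 ± 0.07 (SE; adjusted p = 0.57), and Prc1, which cross-links midzone microtubules, by -0.08 ± 0.06 (SE; adjusted p = 0.37).

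Condensin compacts mitotic chromosomes. Its subunit Ncaph had 0.14 against mock and -0.02 against no knockdown after Bre1a knockdown, and -0.18 and -0.27 against the same controls after Bre1b knockdown. Its subunit Ncapd2 had 0.28 and 0.06 on the Bre1a arrays against mock and no knockdown, and 0.03 and -0.25 on the matching Bre1b arrays. For both, the 2 Bre1a arrays lay above the 2 Bre1b arrays by small steps, with differences of 0.29 ± 0.05 (SE; adjusted p = 0.0583) and 0.28 ± 0.05 (SE; adjusted p = 0.0612). The core ATPases Smc2 and Smc4 differed by 0.20 ± 0.05 (SE; adjusted p = 0.0893) and 0.20 ± 0.05 (SE; adjusted p = 0.087). Smc4 rose after Bre1a knockdown (0.30 ± 0.04, SE; adjusted p = 0.0281), the only condensin gene of the 4 measured to be called there.

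Set against the controls, 19 of the 47 members were called higher after Bre1a knockdown, where 21.1% of all genes were, and 1, Pbk, was called lower, where 19.9% of all genes were. The median was 0.19, against 0.03 over all genes. The adjusted limma p-values of these 20 calls were between 0.0237 and 0.0475, and without the control term limma called 0 members higher and 0 lower, with 5 and 1 at an unadjusted p below 0.05. The highest means were 0.45 for Mad2l1, 0.42 for Kif11, 0.41 for Nek2, 0.40 for Foxm1 and 0.39 for Spc24. On both arrays 28 members (59.6%) were above 0, where 37.7% of all genes were, and 1 (2.13%) was below 0 on both, where 31.9% of all genes were. No member reached 1.5-fold on both arrays in either direction, where 1.44% of all genes did so upward and 5.01% downward. The array against mock gave the higher values: Plk1 was called higher after Bre1a knockdown (0.22 ± 0.04, SE; adjusted p = 0.0423) with 0.61 and -0.17 against mock and no knockdown.

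After Bre1b knockdown 25 of the 47 members were called lower, where 28.2% of all genes were. None was called higher by limma (0 of 47, with 1 at an unadjusted p below 0.05), where 32.3% of all genes were. The median was -0.22, against 0.02 over all genes. The calls had limma adjusted p between 0.00944 and 0.0484, and without the control term limma called 1 member lower, with 13 at an unadjusted p below 0.05. Pbk fell by 0.82 on the log2 scale, Birc5 by 0.72 and Kif15 by 0.61, and Cenpe (-0.49), Nuf2 (-0.49) and Melk (-0.49) followed. By role, 5 of 6 kinesins, 4 of 6 kinetochore genes, 3 of 5 cyclin and Cdk1 genes and 3 of 5 anaphase genes were called lower. So were 3 of 6 midzone and cytokinesis genes, 4 of 10 mitotic kinases and activators and 1 of 4 condensin genes. In the passenger complex 1 of 3 was called lower, and of Foxm1 and Top2a 1 of 2, Foxm1. Both arrays were below 0 for 30 members (63.8%), where 37% of all genes were, and both were above 0 for 1, Cenpa, where 41.5% of all genes were. The Cenpa value against no knockdown lay at the most frequent value of its array. Pbk alone was at least 1.5-fold lower on both arrays (2.13%), where 8.53% of all genes were, and 0 were at least 1.5-fold higher, where 4% of all genes were. The comparisons of Bre1a and of Bre1b with the controls share the kinds of control, and whether they share the control RNA is not known here. Their values therefore stand here side by side and are not correlated.

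**Figure D4:**
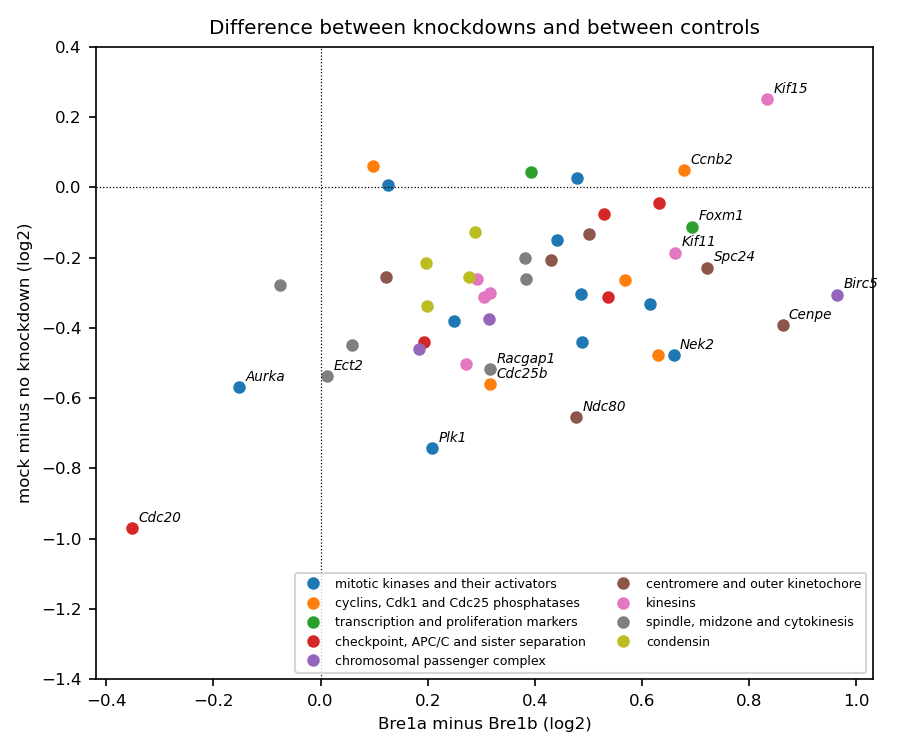
Each measured G2 and mitosis gene by its Bre1a minus Bre1b difference (horizontal axis) and its mock minus no knockdown difference (vertical axis), both in log2 units, 1 point per gene coloured by role. The members' medians are 0.38 and -0.30, and the medians of all genes are 0.00 and -0.01. Both differences come from the same 4 arrays.

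The 2 controls could also be set against each other, as the ratio against no knockdown minus the ratio against mock within each knockdown. The control follows the second number of the array titles. A difference between the controls therefore cannot be told apart from a difference between the replicates of that number. Mock knockdown cells were lower than cells without knockdown for 41 of 47 members, with a median mock minus no knockdown difference of -0.30, against -0.01 over all genes. The median was -0.31 on the Bre1a arrays and -0.28 on the Bre1b arrays, and 40 members (85.1%) were lower on both, where 42.2% of all genes were. The 2 members higher on both were Kif15 and Top2a (4.26%), where 37.8% of all genes were. Limma called 10 members lower, where 6.12% of all genes were, with adjusted p between 0.0475 and 0.0497. None was called higher (0 of 47, and 0 at an unadjusted p below 0.05), where 7.26% of all genes were. These calls hold little margin: 0 members were called lower when arrays were scaled to 1 spread, when 1 probe per gene was used, or when probes with missing values were kept, and 25 to 32 members were then lower at an unadjusted limma p below 0.05.

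Plk1 was 1.67-fold lower in mock cells (-0.74 ± 0.05, SE; adjusted p = 0.0475), and its ratios given above were higher against mock than against no knockdown after either knockdown. Ndc80 (-0.65 ± 0.06, SE; adjusted p = 0.0475), Aurka (-0.57 ± 0.06, SE; adjusted p = 0.0478), Cdc25b (-0.56 ± 0.05, SE; adjusted p = 0.0475) and Ect2 (-0.54 ± 0.06, SE; adjusted p = 0.0478) were also called lower. The other calls were Racgap1, Kif22, Cdc25c, Ttk and Ube2c, between -0.52 and -0.44. Cdc20 had the most negative value (-0.97 ± 0.17, SE; adjusted p = 0.0632) and was not called. Plk1, Ndc80 and Cdc20 were at least 1.5-fold lower on both knockdowns' arrays (6.38%), where 3.67% of all genes were. In the other direction 0 members were at least 1.5-fold higher, where 5.3% of all genes were. For Cdc20 this rests on the single deviating probe given above. Its other probes fell short of 1.5-fold, at 0.469 and -0.055, and 0.358 and -0.047, on the Bre1a arrays against mock and no knockdown. On the matching Bre1b arrays they were at 0.347 and -0.167, and 0.316 and -0.196. Aurka, Ect2 and Plk1 were called between the controls and not between the knockdowns, with Bre1a minus Bre1b values of -0.15, 0.01 and 0.21. Birc5, Kif15, Cdca3 and Top2a were called between the knockdowns and not between the controls, with mock minus no knockdown values of -0.31, 0.25, -0.05 and 0.05. The Birc5 value was close to the threshold (limma adjusted p = 0.0644), at -0.27 on the Bre1a and -0.34 on the Bre1b arrays.

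Promoters of late cell cycle genes often carry a CCAAT box, bound by NF-Y, and a cell cycle genes homology region near the start site, with the core TTTGAA or TTTAAA, bound by MuvB complexes. Sequences from 250 bases before to 50 after the start were taken from RefSeq (GRCm38.p6) for the 43 members that matched, which have 45 promoters, and for 32851 promoters in all, and searched on both strands. CCAAT stood in 75.6% of the member promoters and in 37.4% of all promoters. TTTGAA stood in 73.3% of member promoters and 17.9% of all, and TTTAAA in 20.0% and 13.2%. TTTAAA reads the same on both strands and was counted once, and each motif was counted whether or not it overlapped another. Either core lay between 60 bases before and 30 after the start in 64.4% of member promoters and 8.32% of all promoters.

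Birc5, Cenpe and Kif15 had the 3 largest Bre1a minus Bre1b differences of the members. Plk1 and Ndc80 had a large difference between the controls, and Ndc80 was also called between the knockdowns. The promoters of these members are printed with their motifs marked. Each runs 5′ to 3′ on the gene's strand from 150 bases before the start to 50 bases from the start onward, with the CCAAT box and the cores TTTGAA and TTTAAA on either strand in capitals (TTCAAA and ATTGG are reverse readings). Birc5 lies at chr11:117849087-117849286 on the plus strand, Cenpe at chr3:135212413-135212612 on the plus strand, Kif15 at chr9:122950931-122951130 on the plus strand, Plk1 at chr7:122159285-122159484 on the plus strand and Ndc80 at chr17:71526808-71527007 on the minus strand.
Birc5: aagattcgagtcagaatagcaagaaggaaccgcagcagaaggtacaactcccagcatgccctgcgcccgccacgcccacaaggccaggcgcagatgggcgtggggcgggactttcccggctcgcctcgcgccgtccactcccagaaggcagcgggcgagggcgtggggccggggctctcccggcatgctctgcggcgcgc
Cenpe: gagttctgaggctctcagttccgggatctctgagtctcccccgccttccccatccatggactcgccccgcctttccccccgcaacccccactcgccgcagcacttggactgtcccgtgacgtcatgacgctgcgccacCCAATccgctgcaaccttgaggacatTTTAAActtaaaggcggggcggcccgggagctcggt
Kif15: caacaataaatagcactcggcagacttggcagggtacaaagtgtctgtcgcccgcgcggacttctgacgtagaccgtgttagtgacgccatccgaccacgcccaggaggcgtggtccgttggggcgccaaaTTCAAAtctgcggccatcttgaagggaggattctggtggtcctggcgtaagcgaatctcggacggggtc
Plk1: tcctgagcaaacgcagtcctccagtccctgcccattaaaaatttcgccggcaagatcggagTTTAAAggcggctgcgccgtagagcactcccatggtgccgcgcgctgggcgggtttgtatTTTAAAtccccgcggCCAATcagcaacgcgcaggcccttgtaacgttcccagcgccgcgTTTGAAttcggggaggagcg
Ndc80: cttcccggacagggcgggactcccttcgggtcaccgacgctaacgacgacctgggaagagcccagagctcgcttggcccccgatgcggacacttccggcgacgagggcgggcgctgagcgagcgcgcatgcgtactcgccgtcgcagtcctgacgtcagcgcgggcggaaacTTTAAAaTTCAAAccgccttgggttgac
Birc5 holds none of the 3 motifs in this window, Cenpe holds a CCAAT and a TTTAAA, Kif15 a TTTGAA core on the reverse strand, Plk1 1 CCAAT, 1 TTTGAA and 2 TTTAAA, and Ndc80 a TTTAAA next to a TTTGAA on the reverse strand. A match is a run of letters and not a binding site, and no match says only that the letters are not in the window.

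Members with and without a core in the promoter were set side by side. For the 29 measured members with TTTGAA or TTTAAA in the promoter the median Bre1a minus Bre1b difference was 0.31, and for the 9 without it was 0.49. Birc5 counts among the 29, through a TTTAAA at -218 from the start, outside the window printed above. The median mock minus no knockdown difference was -0.30 in both.

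**Figure D5:**
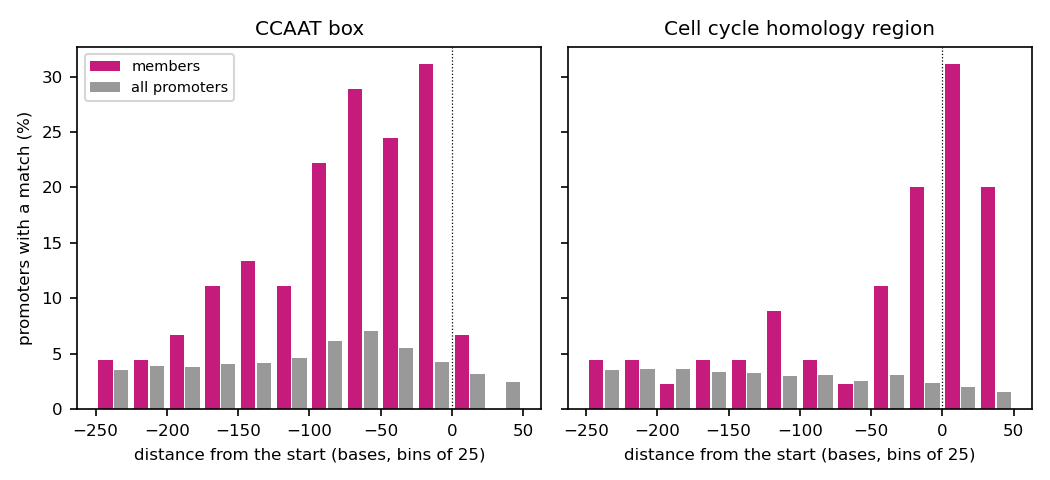
Distance of CCAAT and of TTTGAA or TTTAAA from the transcription start (horizontal axis, bases) in promoters of the G2 and mitosis genes and in all RefSeq promoters, as the share of promoters with a match in each bin (vertical axis, percent). The TTTGAA or TTTAAA matches of the members crowd around the start, with 64.4% of member promoters holding one between 60 bases before and 30 after it, against 8.32% of all promoters.

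Other genes of the division cycle were read from lists of their own. Of 49 further mitosis genes, 14 were called higher and 1 lower after Bre1a than after Bre1b knockdown, where 11.7% of all genes were called higher and 13.2% lower, with a median difference of 0.27. Cenpm, a centromere protein, differed by 0.99 ± 0.06 (SE; adjusted p = 0.0372) with -0.24 and -0.02 on the Bre1a arrays against mock and no knockdown, and -1.28 and -0.95 on the matching Bre1b arrays. Ccnf (cyclin F) differed by 0.96 ± 0.05 (SE; adjusted p = 0.0372) and Knstrn, a spindle and kinetochore adaptor, by 0.73 ± 0.05 (SE; adjusted p = 0.0372). Cenpm was low on both Bre1b arrays, while Ccnf, at 1.89 and 0.78 on the Bre1a and 0.91 and -0.17 on the Bre1b arrays against mock and no knockdown, was below 0 on 1 array. In mock cells 9 of the 49 were called lower than in cells without knockdown, where 6.12% of all genes were, and 0 higher by limma, with 3 higher at an unadjusted p below 0.05, where 7.26% of all genes were called higher.

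Of 48 measured genes of DNA replication and S phase, 9 were called higher and 2 lower after Bre1a than after Bre1b knockdown, where 11.7% and 13.2% of all genes were, and the median difference was 0.20. Lig1 (DNA ligase I) differed by 0.57 ± 0.06 (SE; adjusted p = 0.0379), Uhrf1, which directs maintenance DNA methylation, by 0.56 ± 0.07 (SE; adjusted p = 0.0439), and Pole, the leading-strand polymerase, by 0.53 ± 0.07 (SE; adjusted p = 0.0446). In this list 20 genes were called higher and 2 lower after Bre1a knockdown, where 21.1% and 19.9% of all genes were, and 10 were called in each direction after Bre1b knockdown, where 32.3% of all genes were called higher and 28.2% lower. The median mock minus no knockdown difference was -0.08, and 1 gene was called lower, where 6.12% of all genes were.

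Of 14 anaphase-promoting complex genes, 3 were called higher (Anapc5, Anapc13 and Ube2d1, by 0.46 to 0.53) and 1 lower after Bre1a than after Bre1b knockdown, with a median of 0.07. Of 11 cohesin genes, 0 were called higher by limma (4 at an unadjusted p below 0.05) and 1 lower, Wapl, the cohesin release factor, at -0.69 ± 0.05 (SE; adjusted p = 0.0373). Its values were 0.47 and -0.18 on the Bre1a arrays against mock and no knockdown, and 1.13 and 0.55 on the matching Bre1b arrays, so it was highest on the Bre1b arrays. Of the 19 regulators in the DREAM and MuvB list, 4 were called higher and 1 lower. For all 3 lists the shares of all genes are again 11.7% higher and 13.2% lower. Rbl2 (p130), the pocket protein of DREAM, had -0.08 against mock and 0.43 against no knockdown after Bre1a knockdown, and -0.84 and -0.73 against the same controls after Bre1b knockdown. It fell after Bre1b knockdown (-0.78 ± 0.10, SE; adjusted p = 0.0176) and differed by 0.96 ± 0.14 (SE; adjusted p = 0.0455). E2f2 and Tfdp2 differed by 0.70 ± 0.07 (SE; adjusted p = 0.0385) and 0.59 ± 0.06 (SE; adjusted p = 0.0391). Rbl1 (p107), Mybl2 (B-Myb), the MuvB subunit Lin54 and Cdkn1a (p21) were not called between the knockdowns, at 0.22, 0.19, -0.02 and -0.11. Cdkn1a, which inhibits cyclin-dependent kinases, rose after Bre1b knockdown (0.41 ± 0.08, SE; adjusted p = 0.0387) and was at 0.29 after Bre1a knockdown (limma adjusted p = 0.0857).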

How the data were processed

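The 4 arrays of RIF-1 RNA were analysed from the deposited value table, which holds 1 log2 ratio of knockdown (Cy5) over control (Cy3) per spot. The dyes are per the labels. The base of the logarithm was inferred from the values, since spots exactly 1 below each array's most frequent value numbered 63, 60, 37 and 31, against 14, 25, 14 and 11 at a shifted position. The sources used here give neither image software nor background correction nor normalization, and intensities were not analysed. Spots were named through GEO's platform annotation, with gene IDs looked up in the GRCm38.p6 gene table. The 12958 named spots with 4 values were averaged into 8676 genes.

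The two-sided tests used limma (version 3.58.1, R version 4.3.3): lmFit with a term for the control, then eBayes, then Benjamini-Hochberg adjustment across the 8676 genes at 0.05. The fit has 1 residual and 1.57 prior degrees of freedom. The control follows the second number of the titles, so this term is a replicate block, kept because the control is part of the layout: the difference between controls had r = 0.602 across genes between the Bre1a and the Bre1b arrays. Genes are not independent replicates.

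The members and lists were chosen with earlier results of these data known. All 4 array values are printed for the 2 members per role with the largest Bre1a minus Bre1b difference of 1 sign against both controls, the smallest difference in roles of 5 or more, the 5 largest values per contrast, and calls against the sign of the median. Of other lists the 3 largest called differences are named, with fixed regulators. Of these regulators Lin9 had no value on all 4 arrays. Alternatives were: no control term, centring, scaling, leaving out spots at the most frequent value, 1 probe or the median over probes, probes with missing values, robust eBayes, and leaving out each array.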

Additional observations from a re-analysis of the deposited data

Results flagged for a closer look

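The G2 and mitosis genes as a list differed between the 2 knockdowns by a median of 0.38 (Bre1a minus Bre1b, log2), which is a description and was not tested. Single members are given here for either of 2 reasons: limma called the Bre1a minus Bre1b difference, or both Bre1a arrays were above 0 and both Bre1b arrays below it. Gene averages were used for both, and not every probe of Kif15, Cenpe and Anln kept to its average's side of 0. In all 23 members met a reason, 15 of them both. Opposite on all arrays and called were Birc5 (0.96), Cenpe (0.86), Kif15 (0.83), Spc24 (0.72), Foxm1 (0.69), Kif11 (0.66), Nek2 (0.66), Cdc25c (0.63), Cdca3 (0.63), Ccna2 (0.57), Pttg1 (0.54), Mad2l1 (0.53), Spc25 (0.50), Bub1 (0.49) and Top2a (0.39). Called without lying on opposite sides of 0 were Melk (0.61), Ttk (0.49), Ndc80 (0.48), Pbk (0.48) and Nuf2 (0.43). The other 3, Ccnb2 (0.68), Bub1b (0.44) and Anln (0.38), were opposite on all 4 arrays, and the difference was not called by limma (adjusted p = 0.0855, 0.0502 and 0.0515). With 2 arrays per knockdown no array could be tested as standing apart within its group.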

How the results depend on the processing

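The members' median Bre1a minus Bre1b difference of 0.38 became 0.37 with arrays centred, 0.35 with arrays scaled to 1 spread, 0.384 without spots at the repeated value, 0.34 with the first probe of a gene and 0.35 with the median over probes. It was 0.37 to 0.373 with each array left out in turn, where the control term leaves no residual degree of freedom and so no test, and 0.209, 0.241, 0.512 and 0.531 with each left out and no replicate block (without the Bre1a array against mock, the Bre1b array against no knockdown, the Bre1a array against no knockdown and the Bre1b array against mock). The median mock minus no knockdown difference of -0.30 became -0.32 with arrays scaled and -0.28 with the first probe.

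The replicate block, here the control term, decides the calls. With no replicate block 0 members were called higher and 0 lower after Bre1a knockdown (19 and 1 with it), 1 lower after Bre1b knockdown (25 with it) and 0 higher between the knockdowns (20 with it), and the mock contrast has no value there. Leaving out each array with no replicate block gave 0 higher and 0 lower after Bre1a, 0 to 2 lower after Bre1b and 0 higher between the knockdowns. Scaling gave 5 higher after Bre1a, 9 lower after Bre1b, 0 higher between the knockdowns and 0 lower in mock cells (10 unscaled). Keeping probes with missing values gave 0 and 0 for these last 2 counts, and the first probe gave 0 lower in mock cells and 2 members at least 1.5-fold lower after Bre1b (1 otherwise). Over all genes, no replicate block left 0 calls between the knockdowns.

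For the 140 other genes of the pathway, calls after Bre1a of 40 higher and 7 lower became 0 and 0 with no replicate block, also with each array left out, and 18 and 2 with scaling. After Bre1b, 29 higher and 41 lower became 0 and 0 with no replicate block (0 to 1 and 0 to 6 with each array left out) and 12 and 16 with scaling. Between the knockdowns, 30 higher and 6 lower became 0 and 0 with no replicate block, with each array left out, with scaling and with missing values kept, and the first probe gave 3 lower. In mock cells, 2 higher became 1 with centring, and 2 higher and 12 lower became 0 and 0 with scaling, with the first probe and with missing values kept.

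Of 1880 recomputed values of the 32 members named with values, 77 changed sign, in 20 members. Called members account for 2 of these, Plk1 after Bre1a without the Bre1a array against mock and no replicate block (-0.167) and Kif22 after Bre1b without the Bre1b array against no knockdown and no replicate block (0.02). Cdc20 after Bre1a, not called, became 0.207 with the first probe, which leaves out its deviating probe, and was then called. The other 74 values were called on neither side. With the control term kept and an array left out there is no test, and 28 turned values lay between -0.209 and 0.2093.

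The others after Bre1a were Aurka (-0.0277) and Kif22 (-0.0237) with scaling, Cdc20 (0.1515) with the median over probes and Cdk1 (-0.749) with missing values kept. After Bre1b they were Cdca8 (-0.0212) and Plk1 (-0.0482) with scaling and Cdca8 (-0.022) with the first probe. Between the knockdowns they were Ect2 with centring (-0.0015), Cdc20 with the first probe (0.117) and the median over probes (0.076), and Cdk1 with missing values kept (-0.7645). In mock cells they were Aurkb (-0.007) with centring and Aurkb (-0.0284), Ccnb2 (-0.045) and Pbk (-0.1819) with scaling.

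The remaining ones came from leaving out an array with no replicate block. Without the Bre1a array against no knockdown, Aurkb (0.008), Cdc20 (0.308), Cdc25b (0.179), Nuf2 (0.043), Nusap1 (0.134) and Ube2c (0.142) turned after Bre1a, and Aurka (0.1015) and Cdc20 (0.004) between the knockdowns. Without the Bre1a array against mock, Aurka (-0.241), Ect2 (-0.188), Kif22 (-0.211), Melk (-0.037) and Ncaph (-0.017) turned after Bre1a, and Cenpa (-0.0985), Ect2 (-0.285), Plk1 (-0.178) and Ube2c (-0.0175) between the knockdowns. Without the Bre1b array against no knockdown, Cdk1 (-0.079), Ncapd2 (0.034) and Ndc80 (0.249) turned after Bre1b, and Ect2 (-0.2275), Kif22 (-0.0085), Plk1 (-0.149) and Ube2c (-0.0345) between the knockdowns. Without the Bre1b array against mock, Aurka (-0.152), Cdc20 (-0.3103), Cdca8 (-0.207), Ect2 (-0.143) and Plk1 (-0.346) turned after Bre1b, and Aurka (0.164) and Cdc20 (0.2618) between the knockdowns. The cause of the other changes was not tested. Brightness over background was not available here, so weak spots could not be set apart, and a saturated pair of channels would hide a difference.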
